A study of Mus musculus with 6 samples.

Results

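Kinesins are motor proteins that use the energy of ATP to move along microtubules. The genes described here are the 34 mouse genes whose symbol begins with Kif and a digit and that had at least 10 RNA-seq counts over the naive and the peak library, out of 17479 genes with a symbol and that many counts and 42303 gene rows in all. By role they divide into 10 mitotic kinesins, 14 transport kinesins, 6 kinesins linked to cilia and 4 other symbols. Another 7 matching symbols had fewer counts. The pattern ended between Kif6, with 7 naive and 3 peak counts, and Kif17, with 8 and 1. Kif4, a mitotic kinesin on the X chromosome, was not analysed here.

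Transport kinesins carry vesicles, organelles and RNA granules outward along microtubules and are made in cells whether or not these divide. Mitotic kinesins build the spindle, move chromosomes and drive cytokinesis, and most of them are made from the G2 phase onward and destroyed as cells leave mitosis. Microglia, the resident macrophages of the brain and spinal cord, divide slowly in the healthy adult and can divide in inflammation. A shared promoter element of G2 and mitosis genes is the cell cycle genes homology region (CHR), which is bound by the DREAM complex in resting cells and by B-MYB and FOXM1 complexes in dividing cells.

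Microglia were sorted on F4/80 and CD45 after a Percoll gradient from the brain and spinal cord of C57Bl/6 mice, taken naive or at peak disease. The disease was experimental autoimmune encephalomyelitis (EAE), in which the immune system attacks myelin. EAE was induced with myelin oligodendrocyte glycoprotein peptide 35 to 55 at an age of 24 to 28 weeks in Ccr2rfp/+::Cx3cr1gfp/+ mice, whose knocked-in fluorescent reporters each replace 1 allele of a chemokine receptor gene. The labels do not say whether the naive mice carried the reporters too. Peak was the second day on which the clinical score had stopped climbing. Cells of 30 mice were pooled per condition. RNA-seq gave 1 library per condition, with 31282093 naive and 36561934 peak counts, so its differences describe 2 libraries and carry no p-value. MiGS, which sequences the DNA pulled down by a protein that binds methylated CpG, gave 2 libraries per condition with 30424742 to 43970332 reads each, summed over windows of 50 bp, of which 42.9% to 55.9% lay in windows of over 2000 reads. The microglial genes P2ry12 and Tmem119 had 60990 and 74977 counts in the peak library.

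The promoters of the mitotic kinesins are shown first, because most of them share a motif of cell cycle genes. Sequences are those of RefSeq (GRCm38.p6), from 250 bases before to 50 bases after a gene's start. They were found for 28 of the 34 genes, as 32 promoters. Capitals mark matches to CHR (TTTGAA or TTCGAA), the CCAAT box (CCAAT) and the E2F site (TTTCGCGC or TTTGGCGC) on either strand, and neighbouring matches run together. The 3 full promoters belong to the mitotic kinesins with the most peak counts among those with an entry, namely Kif11 (chr19:37376132-37376431, + strand), Kif15 (chr9:122950831-122951130, + strand) and Kif2c (chr4:117178723-117179022, - strand).
Kif11: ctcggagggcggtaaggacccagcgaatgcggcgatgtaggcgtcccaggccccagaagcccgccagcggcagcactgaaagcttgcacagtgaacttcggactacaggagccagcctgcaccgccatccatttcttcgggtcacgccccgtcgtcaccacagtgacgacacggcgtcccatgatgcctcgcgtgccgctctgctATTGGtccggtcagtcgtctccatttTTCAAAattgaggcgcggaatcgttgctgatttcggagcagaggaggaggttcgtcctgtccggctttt
Kif15: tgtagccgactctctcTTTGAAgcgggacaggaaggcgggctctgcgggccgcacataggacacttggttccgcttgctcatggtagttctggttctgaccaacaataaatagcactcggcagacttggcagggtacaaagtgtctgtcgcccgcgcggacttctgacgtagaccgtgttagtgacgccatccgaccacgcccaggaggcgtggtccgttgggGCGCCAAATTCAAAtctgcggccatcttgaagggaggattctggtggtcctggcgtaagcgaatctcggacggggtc
Kif2c: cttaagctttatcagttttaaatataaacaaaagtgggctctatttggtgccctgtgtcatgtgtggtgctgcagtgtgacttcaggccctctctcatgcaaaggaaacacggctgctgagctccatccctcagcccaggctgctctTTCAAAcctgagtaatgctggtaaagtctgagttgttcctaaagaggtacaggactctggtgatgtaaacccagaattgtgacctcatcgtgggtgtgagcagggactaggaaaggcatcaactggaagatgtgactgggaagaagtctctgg

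The 5 stretches that follow cover 45 bases before to 25 bases after the start of other mitotic kinesins and were chosen after the matches were seen. They show where CHR lay near the start, with Kif18a as the 1 promoter without it. Their places are Kif18a chr2:109280693-109280762 (+ strand), Kif18b chr11:102925100-102925169 (- strand), Kif20b chr19:34922313-34922382 (+ strand), Kif22 chr7:127042396-127042465 (- strand) and Kif23 chr9:61946775-61946844 (- strand).
Kif18a: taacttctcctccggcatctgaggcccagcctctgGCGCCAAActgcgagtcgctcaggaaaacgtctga
Kif18b: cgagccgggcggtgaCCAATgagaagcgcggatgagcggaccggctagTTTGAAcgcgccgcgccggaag
Kif20b: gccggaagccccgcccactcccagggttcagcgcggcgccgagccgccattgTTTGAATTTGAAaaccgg
Kif22: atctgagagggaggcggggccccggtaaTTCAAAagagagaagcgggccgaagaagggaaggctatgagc
Kif23: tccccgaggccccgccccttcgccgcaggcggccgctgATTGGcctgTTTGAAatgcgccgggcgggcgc

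CHR letters were present in 8 of 9 mitotic kinesin promoters, against 1 of 12 promoters of transport kinesins (an inner start of Kif1a) and 19.2% of all 32851 promoters of the same length. They were also in 2 of 6 promoters of cilium-linked kinesins (Kif24 and Kif27) and 1 of 5 of other symbols (Kif26b). In Kif11 and Kif15 the match nearest the start began 19 bases before it, in Kif22 17 bases before it, and in Kif23 and Kif18b just inside the transcript. Kif20b held 2 matches side by side. Within 30 bases of the start, a window chosen after the matches were seen, 6 of 9 mitotic and 0 of 12 transport promoters held CHR, against 3.13% of all promoters. In that window it was also held by 1 of 6 cilium-linked promoters (Kif24) and 1 of 5 promoters of other symbols (Kif26b). CHR and a CCAAT box stood together in 5 of 9 mitotic promoters (7.53% of all promoters), and an E2F site in 2 of 9, those of Kif15 and Kif18a (0.813% of all promoters). The median GC content was 59.7% in the mitotic, 68.2% in the transport and 52.7% in all promoters. The part of base composition in these shares was not tested. The RefSeq start of Kif2c lay 3852 bases and that of Kif14 1547 bases inside the gene's outer end, so these windows need not be the main promoter. A match is a description of letters and does not show that a factor binds.

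Each of the 10 mitotic kinesins with enough counts had far more RNA in the peak library, and no transport kinesin reached 2-fold in either direction. Kif2b, also of the mitotic class, had 0 counts in both libraries. All 10 mitotic kinesins passed 2-fold, from 7.10-fold for Kif20b to 42.1-fold for Kif18b, with a median log2 ratio of 4.52. Of 14 transport kinesins 0 passed 2-fold upward and 0 downward, and their median log2 ratio was -0.12. The same limits were passed upward by 13.2% and downward by 11.7% of all 17479 genes, with a median log2 ratio of 0.01. Of the 4886 genes with 14 to 151 naive counts, the range of the mitotic kinesins, 15.2% were 2-fold or more higher. At 5-fold or more stood 10 of 10 mitotic kinesins, 4.7% of all genes and 6.32% of genes in that count range. Folds are ratios of counts scaled by TMM, calls use the log2 ratio with 0.5 added to each scaled count, and the intervals given are exact 95% (Clopper-Pearson) intervals that cover counting error only. By the stricter rule that the whole interval lies beyond 2-fold, 10 of 10 mitotic and 0 of 14 transport kinesins were higher (8.48% of all genes), and 0 kinesins of any class were lower (3.55% of all genes). In sorted bulk cells, more dividing cells and more RNA per dividing cell cannot be told apart.

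**Figure D1:**
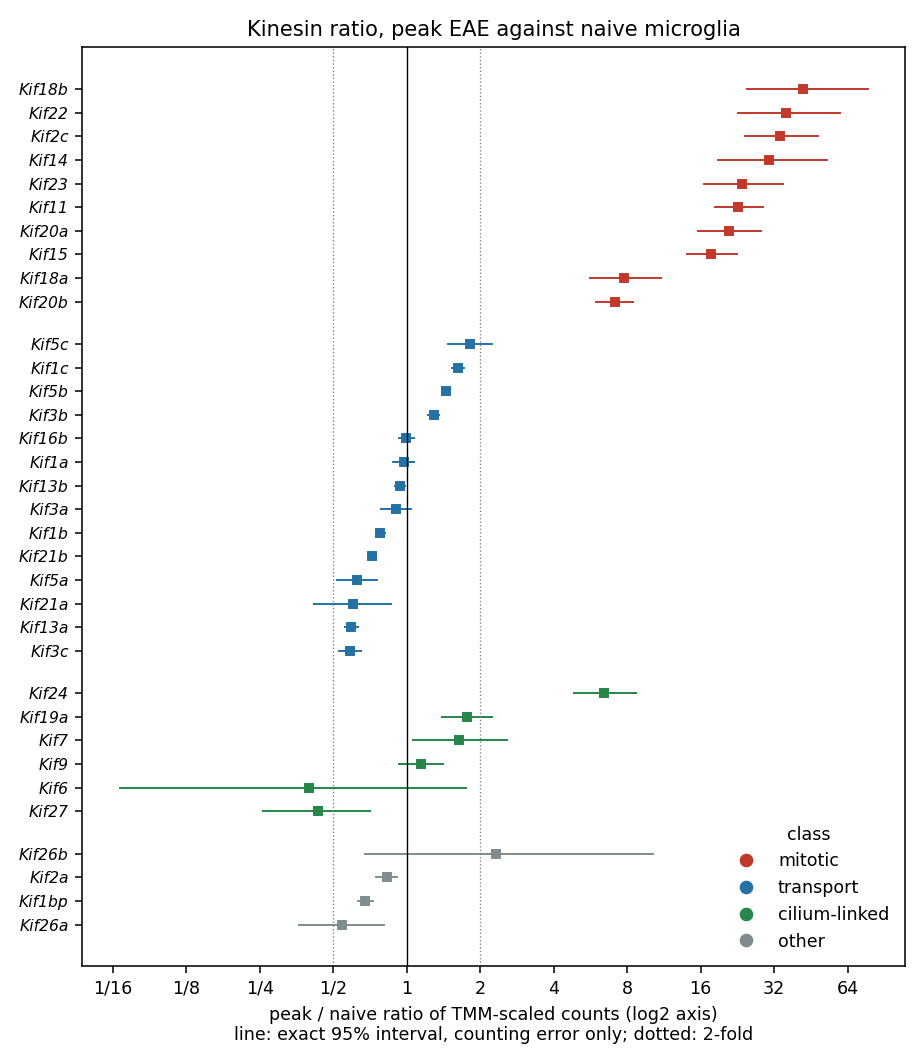
Ratio of TMM-scaled counts in the peak over the naive library for 34 kinesins (log2 axis), as a square with its exact 95% counting interval as a line, coloured by class; dotted lines mark 2-fold. The intervals of the 10 mitotic kinesins lie from 5.64 upward, above those of all 14 transport kinesins, which end at 2.23.

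The motors that keep the spindle bipolar had the most peak counts of the mitotic kinesins. Kif11, the motor that slides antiparallel microtubules apart to make the spindle bipolar, had 83 naive and 2036 peak counts (22.8-fold higher, interval 18.3 to 28.8). Kif15, which backs up Kif11 in keeping the spindle bipolar, had 78 and 1481 counts (17.7-fold, 14.1 to 22.5). Per length, Kif11 was at 0.551 FPKM in the naive and 11.6 FPKM in the peak library, and Kif15 at 0.518 and 8.41 FPKM. Both were thus under 1 FPKM in the naive library and above Kif1b and Kif13a, transport kinesins at 6.92 and 6.97 FPKM, in the peak library. Kif22, at 9.69 FPKM in the peak library, lay between Kif11 and Kif15, so the order by counts is not the order per length.

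The 3 highest ratios belonged to motors that act on chromosomes and microtubule ends. Kif18b, which shortens astral microtubules, had 14 naive and 633 peak counts (42.1-fold, 24.9 to 77.4). Kif22, the chromokinesin that pushes chromosome arms outward, had 19 and 731 (35.8-fold, 22.8 to 59.8), and Kif2c, which takes microtubules apart at centromeres and corrects faulty attachments, had 36 and 1309 (33.8-fold, 24.3 to 48.5). The intervals of these 3 genes overlap, so their order lies within counting error. Those of Kif14, Kif23, Kif11 and Kif20a overlap them too, so these ratios give no ranking by function. Kif22-ps, the pseudogene of Kif22, had 0 counts in both libraries. Kif18a, which damps chromosome movements at the metaphase plate, had 42 and 351 counts and stood lower at 7.78-fold (5.64 to 10.98). Its level reached 0.976 FPKM in the peak library, the lowest of the mitotic kinesins and the 1 of 10 still under 1 FPKM.

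Motors of the central spindle and cytokinesis ranged from 7.10-fold to 30.4-fold higher. Kif14, which works at the midbody, had 17 naive and 555 peak counts (30.4-fold, 18.8 to 52.5). Kif23, the kinesin subunit of the centralspindlin complex, had 31 and 786 (23.6-fold, 16.5 to 35.0). Kif20a, which carries the chromosomal passenger complex to the central spindle, had 49 and 1098 (20.9-fold, 15.7 to 28.4). Its gene overlaps Brd8 and Cdc23 in RefSeq, and Kif18a overlaps Mettl15, so reads from those genes may be counted with them. Kif20b, another cytokinesis motor, had the most naive counts of the class, 151, against 1152 in the peak library (7.10-fold, 5.99 to 8.47). Ordered by ratio, neighbouring intervals overlap throughout except between Kif15 and Kif18a, so Kif18a and Kif20b form a lower pair at counting precision.

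Mitotic kinesins outside the symbol pattern and genes of proteins that work with these motors had more RNA in the peak library too. Cenpe, the kinetochore kinesin that carries chromosomes to the spindle equator, went from 75 to 2235 counts (27.7-fold) and Kifc1, a minus-end motor that focuses spindle poles, from 41 to 700 (15.9-fold). Kifc5b, named after its values were seen and close in sequence to Kifc1, had 54 and 254 counts, and reads may be split between the pair. Of 17 partner genes 17 passed 2-fold upward (13.2% of all genes), with a median log2 ratio of 4.14. Aurkb, the kinase of the chromosomal passenger complex, was 46.0-fold higher, its subunit Birc5 37.7-fold, and the spindle-linked Hmmr 31.7-fold. The spindle checkpoint gene Kntc1 had 30 and 1178 counts. Among tubulins, the track subunits, 3 of 12 were higher and 1 lower by 2-fold (13.2% and 11.7% of all genes). Their median log2 ratio was 0.52, with Tuba1c at 4.31-fold, Tubb6 at 3.50-fold and Tubb5 at 9751 and 29035 counts. Tuba1a had 4052 and 2122 counts.

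Markers of monocytes and T cells, other immune cells that the sort could hold, were mostly higher in the peak library too. Of 8 monocyte markers 7 were at least 2-fold higher, and their summed level was 7.20 FPKM in the naive and 118 FPKM in the peak library. Fn1 alone stood at 2.23 FPKM in the naive and 83.9 FPKM in the peak library, and Ly6c2 had 5 and 338 counts. Ccr2, a defining marker of monocytes, was below 2-fold with 542 and 1059 counts. The EAE mice carried a reporter in place of 1 Ccr2 allele, and its part in this ratio was not tested. T cell markers were measured for 7 genes, of which 6 passed 2-fold upward, with a summed level of 0.881 and 3.81 FPKM, and Cd2 had 0 and 25, Cd3g 0 and 21 and Cd3e 0 and 2 counts. Of these 7 genes 5 had under 10 naive counts and reached the count minimum only with their peak counts, so that being higher is partly fixed by that minimum, and the same holds for 2 of the 8 monocyte markers. None of the 10 mitotic kinesins was in that position. Of 5 measured neutrophil markers 2 were higher and 1 lower, and Ly6g, under the count minimum, had 0 and 2 counts. Cd79b, the B cell marker measured, had a log2 ratio of -0.44. The part of these cells in the mitotic kinesin values was not tested. Microglial markers had a median log2 ratio of -0.76, with 2 of 8 at least 2-fold lower (11.7% of all genes). Astrocyte markers had a median of -1.03 (3 of 6 lower, 1 higher), endothelial markers -0.98 (2 of 5 lower) and oligodendrocyte markers -0.74 (2 of 5 lower), and their part in the values of the transport kinesins and tubulins was not tested.

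**Figure D2:**
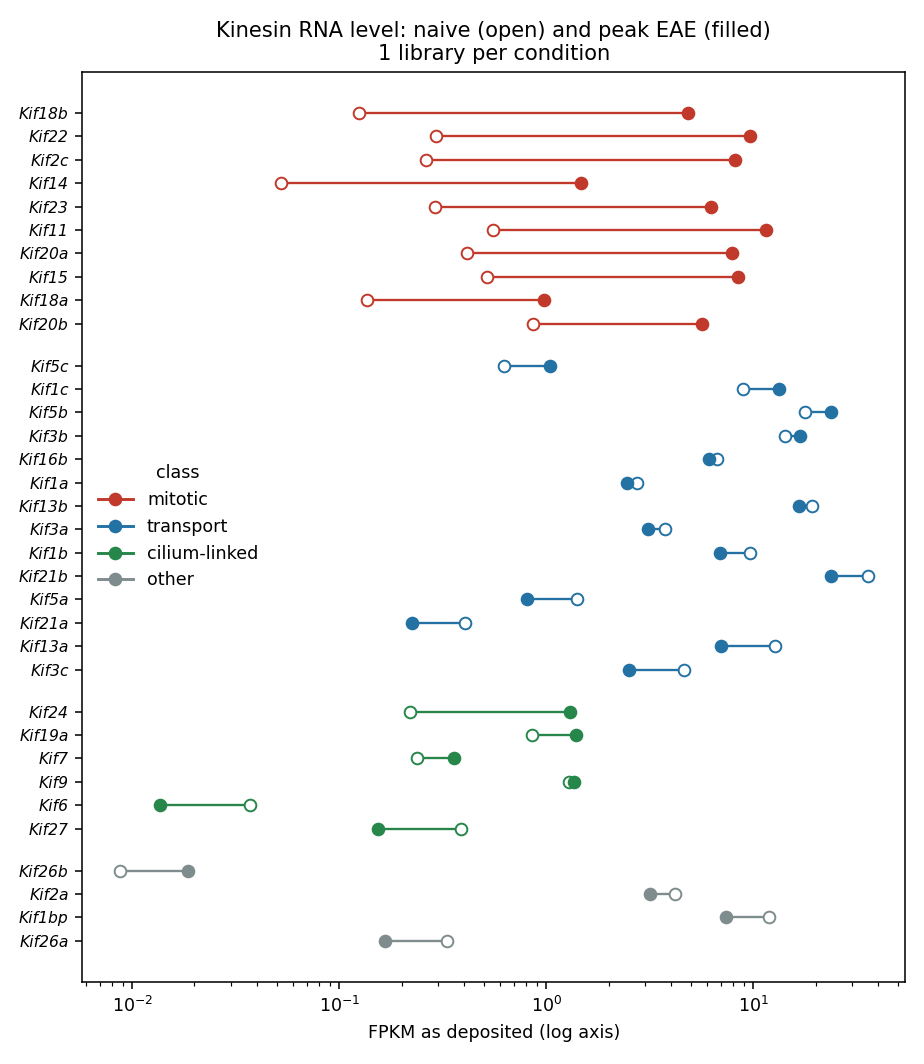
FPKM of 34 kinesins as deposited (log axis), open circles for the naive and filled circles for the peak library, coloured by class, 1 library per condition. All 10 mitotic kinesins lie under 1 FPKM in the naive library, and 9 of them above it in the peak library.

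Kinesin RNA of the naive microglia was mostly that of transport motors. Transport kinesins made up 85.8% of the summed kinesin FPKM in the naive library (139 FPKM) and 60.8% in the peak library (124 FPKM). That sum includes Kif1bp, which encodes no motor, at 11.9 FPKM in the naive and 7.37 FPKM in the peak library. The mitotic share was 2.17% (3.51 FPKM) and 31.7% (65.0 FPKM). None of the 10 highest kinesins was mitotic in the naive library and 5 were in the peak library, with Kif11 at rank 6. Summed counts of the mitotic class were 18.1-fold higher (interval 16.6 to 19.8), and those of the transport class were at 0.923 of the naive value (0.910 to 0.936).

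**Figure D3:**
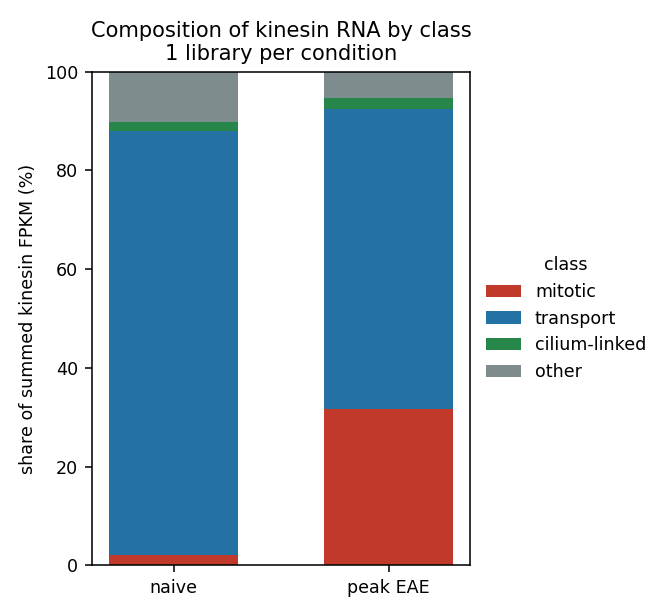
Share of each class in the summed FPKM of 34 kinesins, as stacked bars for the naive and the peak library (1 library each). Kif1bp, which encodes no motor, is counted with the other symbols. The mitotic share is 2.17% in the naive and 31.7% in the peak library.

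Transport kinesins spread to both sides of no change within 2-fold. Log2 ratios were above 0 for 4 of 14, namely Kif5c, Kif1c, Kif5b and Kif3b, and below 0 for 10. At 1.5-fold or more, 2 of 14 were higher (22.2% of all genes) and 4 of 14 lower (21% of all genes). Kif5b, the heavy chain of kinesin-1 in most cells, had 4111 naive and 6413 peak counts (1.45-fold higher, interval 1.40 to 1.51). Kif5c had 140 and 272 (1.81-fold, 1.47 to 2.23) and was the transport kinesin with the highest ratio, while Kif5a, the neuronal heavy chain, had 277 and 186 (1.60-fold lower, 1.32 to 1.94). Kif5a overlaps Dctn2 in RefSeq. The 3 heavy chains thus differed in direction, and Kif5b, at 23.7 FPKM in the peak library, was the most abundant of them and level with Kif21b at the top of all kinesins there.

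The kinesin-2 subunits form heterodimers that move vesicles and intraflagellar trains. Kif3b had 2517 and 3482 counts (1.29-fold higher, 1.22 to 1.36). Its usual partner Kif3a had 419 and 407 (1.11-fold lower, 0.963 to 1.27), an interval that holds 1. Kif3c, the alternative partner, had 994 and 626 counts (1.71-fold lower, 1.54 to 1.89), the lowest ratio of the transport class. Per length Kif3b was above Kif3a in both libraries, 14.3 against 3.74 FPKM in the naive and 16.9 against 3.10 FPKM in the peak library.

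The kinesin-3 motors carry synaptic vesicle precursors, lysosomes and endosomes. Kif1c, a fast carrier of vesicles in many cell types, had 2037 and 3557 counts (1.63-fold higher, 1.54 to 1.72). Kif1b, which carries mitochondria and lysosomes, had 5327 and 4458 (1.28-fold lower, 1.23 to 1.34), and Kif13a, which moves recycling endosomes, 2743 and 1749 (1.69-fold lower, 1.59 to 1.79). Kif13b had 3381 and 3419 counts (1.06-fold lower, 1.01 to 1.11). Kif1a, the neuronal carrier, had 803 and 839, and Kif16b, an early endosome motor, 1385 and 1483. The intervals of both hold 1, and Kif16b moved to the other side of 0 with DESeq2 size factors.

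Kif21b, a motor that curbs microtubule growth, was the most abundant kinesin of the naive library at 35.7 FPKM and stood at 23.7 FPKM in the peak library, with 13605 and 10548 counts (1.39-fold lower, 1.35 to 1.42). Its paralog Kif21a had 82 and 53 counts (1.66-fold lower, 1.16 to 2.39). Neuron markers, which bear on Kif1a, Kif5a and Kif5c, had a median log2 ratio of 0.06, with summed levels of 1.91 and 1.98 FPKM in the naive and peak libraries.

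Partners of transport kinesins and the opposing motor dynein gave medians close to that of all genes. Of 15 measured light chains, adaptors and cargo regulators 0 were higher and 0 lower by 2-fold (median log2 ratio 0.06), with Klc3 at 16 and 10 counts, Plekhm2, which links lysosomes to kinesin-1, at 1.60-fold higher, Mapk8ip1 at 179 and 127 counts and Trak2, a mitochondrial adaptor, at 1.28-fold higher. Of 20 dynein and dynactin genes 1 was higher, Dynlt1a with 11 and 60 counts and near-identical gene copies that may share its reads, and 1 lower, Dync1i1 with 14 and 7, and the median was 0.08. The minus-end kinesins Kifc2 and Kifc3 had 143 and 153, and 552 and 600 counts.

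**Figure D4:**
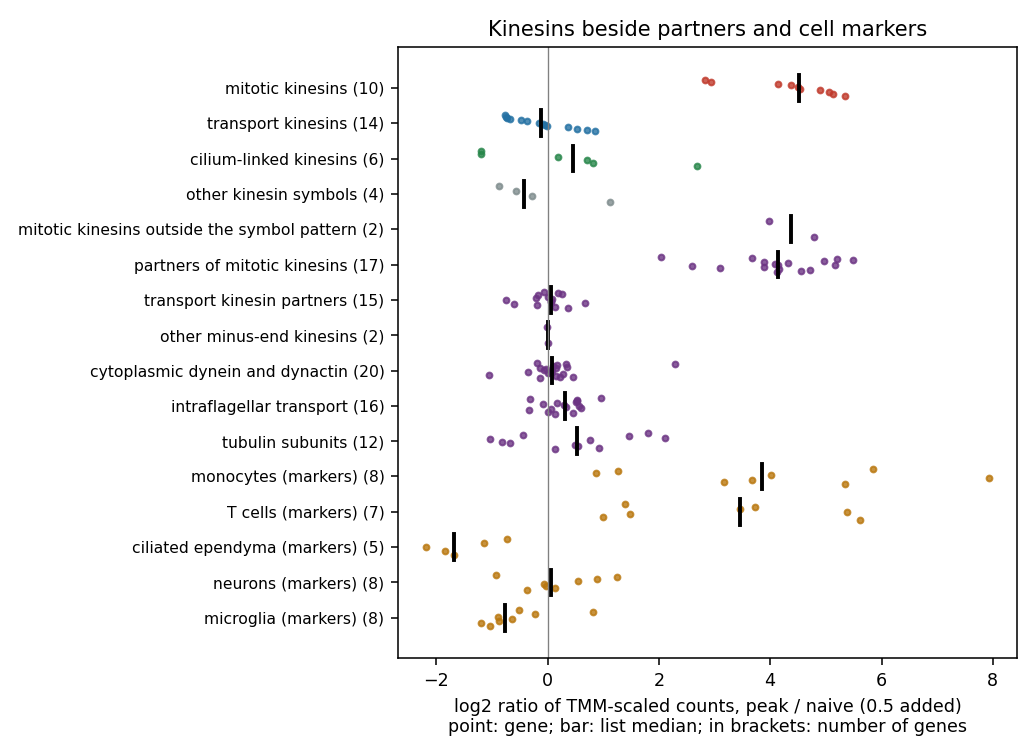
Log2 ratio (peak over naive, 0.5 added to scaled counts) of each gene as a point and the list median as a black bar, for the 4 kinesin classes, partner lists and cell markers, with the number of genes in brackets. Mitotic kinesins and their partners have medians of 4.52 and 4.14, and transport kinesins and their partners -0.12 and 0.06.

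Kinesins linked to cilia went in both directions. Kif24, which restrains cilium formation at the mother centriole, had 55 and 381 counts (6.45-fold higher, 4.85 to 8.72), and its promoter held CHR within 30 bases of the start. It was the 1 of 6 with an interval beyond 2-fold. Kif27, tied to motile cilia, had 54 and 25 counts (2.32-fold lower, 1.42 to 3.89), and its promoter held CHR too. The nearest match began 73 bases before a RefSeq start that lay 9798 bases inside the gene. Kif6 had 7 and 3 counts (2.51-fold lower, 0.572 to 15.0), an interval that holds 1. Kif19a, which trims ciliary microtubules, had 109 and 206 (1.76-fold higher, 1.39 to 2.24), Kif7, a regulator of Hedgehog signalling at the cilium tip, 34 and 60 (1.64-fold, 1.06 to 2.58) and Kif9 174 and 214 (1.15-fold, 0.933 to 1.41). Kif7 overlaps Ticrr and Kif19a overlaps Btbd17 in RefSeq. Kif9 moved to the other side of 0 with upper quartile scaling.

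Markers of ciliated ependyma, the lining of the ventricles, were lower in the peak library. Of 5 with enough counts, 4 were at least 2-fold lower (11.7% of all genes). For 1 of 5, Dnah9, the whole interval lay beyond 2-fold lower (3.55% of all genes). The summed level of these markers was 3.75 FPKM in the naive and 1.34 FPKM in the peak library. Their part in the values of Kif6 and Kif27 was not tested. Of 16 genes of intraflagellar transport 0 were higher and 0 lower by 2-fold (13.2% and 11.7% of all genes), with a median log2 ratio of 0.31.

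Of the 4 remaining symbols, 3 were below 2-fold. Kif2a, which takes microtubules apart in neurons and at spindle poles, had 925 and 821 counts (1.21-fold lower, 1.10 to 1.33). Kif1bp encodes no motor but a protein that binds kinesins and blocks their hold on microtubules, and had 1722 and 1251 counts (1.48-fold lower, 1.37 to 1.59). Kif26a, a kinesin without ATPase activity, had 72 and 42 (1.84-fold lower, 1.24 to 2.76). Kif26b had 4 and 10 counts (2.33-fold higher, 0.671 to 10.2), passed the count minimum mainly through its peak counts, and has an interval that holds 1.

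Within kinesin families, which share motor sequence, mitotic members had higher ratios than their measured relatives of other classes. In the kinesin-13 family the mitotic Kif2c was 33.8-fold higher, while Kif2a was 1.21-fold lower. Kif24 of this family, classed as cilium-linked, was 6.45-fold higher, and its interval (4.85 to 8.72) overlaps those of the mitotic Kif18a and Kif20b. In kinesin-8, Kif18a and Kif18b were 7.78-fold and 42.1-fold higher and Kif19a 1.76-fold. In kinesin-3, Kif14 was 30.4-fold higher and the other 6 members ranged from 1.69-fold lower to 1.63-fold higher. The 3 kinesin-6 members, Kif20a, Kif20b and Kif23, are all mitotic and were all above 7-fold.

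The second readout asked whether methylated DNA at kinesin genes differed between the same conditions. Most starts of the 10 mitotic kinesins carried no captured DNA in either condition, as did most starts of transport kinesins and of all protein-coding genes. Kif2b, mitotic but under the RNA count minimum, differed, with 152 and 184 naive and 86 and 133 peak reads at its start. From 1000 bases before to 500 bases after the start (both gene ends for genes without a RefSeq promoter entry), 8 of 10 mitotic and 10 of 14 transport kinesins had 0 reads in all 4 libraries, against 57.0% of 20665 protein-coding genes. A count of 0 allows up to 3 reads per library. Kif20a, read at both gene ends, had 5 and 0 naive and 8 and 3 peak reads. Kif14 had 23 and 8 naive and 52 and 9 peak reads. At the outer end of the gene span, an alternative added after seeing the data, Kif14 had 0 reads in all 4 libraries. There 9 of 10 mitotic kinesins had none, beside 25 of all 34 kinesins and 12140 of 20665 protein-coding genes.

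At the starts, no difference in captured DNA passed the test. Limma called 0 of the 8 kinesin starts with at least 20 reads (0% of all 6277 starts tested were called), and 0 of the 8 were at an unadjusted p under 0.05. Across all starts 287 were at an unadjusted p under 0.05, and edgeR and DESeq2 on recovered reads called 0 as well. The kinesin start with the smallest p was that of Kif3b, at 9.84 and 20.1 signal per kb in naive and 9.38 and 8.16 in peak replicates 1 and 2 (log2 change -0.65, SE 0.98, adjusted p = 0.919 by limma). Naive replicate 1 was close to peak replicate 1, and the naive replicates lay farther from each other than that. Those of Kif19a (-0.45) and Kif5c (-0.13) were the other lower ones, and Kif26a (0.50), Kif1a (0.17) and Kif1bp (0.41) had the smallest p among the higher. Kif1a had the highest mean signal of the 34 starts, at 16.3 and 16.6 per kb in naive and 17.9 and 19.3 in peak libraries. It has 2 RefSeq starts, 1 of them 19559 bases inside the gene, and its outer end alone held 1 and 3 naive and 4 and 2 peak reads.

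Gene bodies carried captured DNA in all 34 kinesins, as in most protein-coding genes, of which 1604 of 18735 had 0 reads. The median signal was 15.5 per kb, against 8.92 over all protein-coding genes, from 1.95 for Kif16b to 107 for Kif26a. Limma called 0 of 34 kinesin bodies (0% of 16484 bodies tested), 0 of 34 and 485 of all bodies were at an unadjusted p under 0.05, and edgeR and DESeq2 without a block called 0. The smallest p for lower signal belonged to Kif26a, at 89.0 and 189 per kb in naive and 52.5 and 98.0 in peak libraries (log2 change -0.85, SE 0.43, limma adjusted p = 0.960), to Kif1c (-0.72) and to Kif18b (-0.49). Naive replicate 2 was the highest library in each of the 3. Kif1c had 52.8 and 93.3 per kb in naive and 33.9 and 53.5 in peak libraries. For higher signal they were Kif3b (0.67), Kif23 (0.49) and Kif11 (0.31), where peak replicate 1 was the highest library. At Kif11 the values were 8.58 and 8.67 in naive and 13.5 and 8.52 in peak libraries. Mitotic kinesin bodies had library medians of 12.4 and 10.6 per kb in naive and 15.1 and 11.8 in peak libraries, and the 2 ranges overlap.

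**Figure D5:**
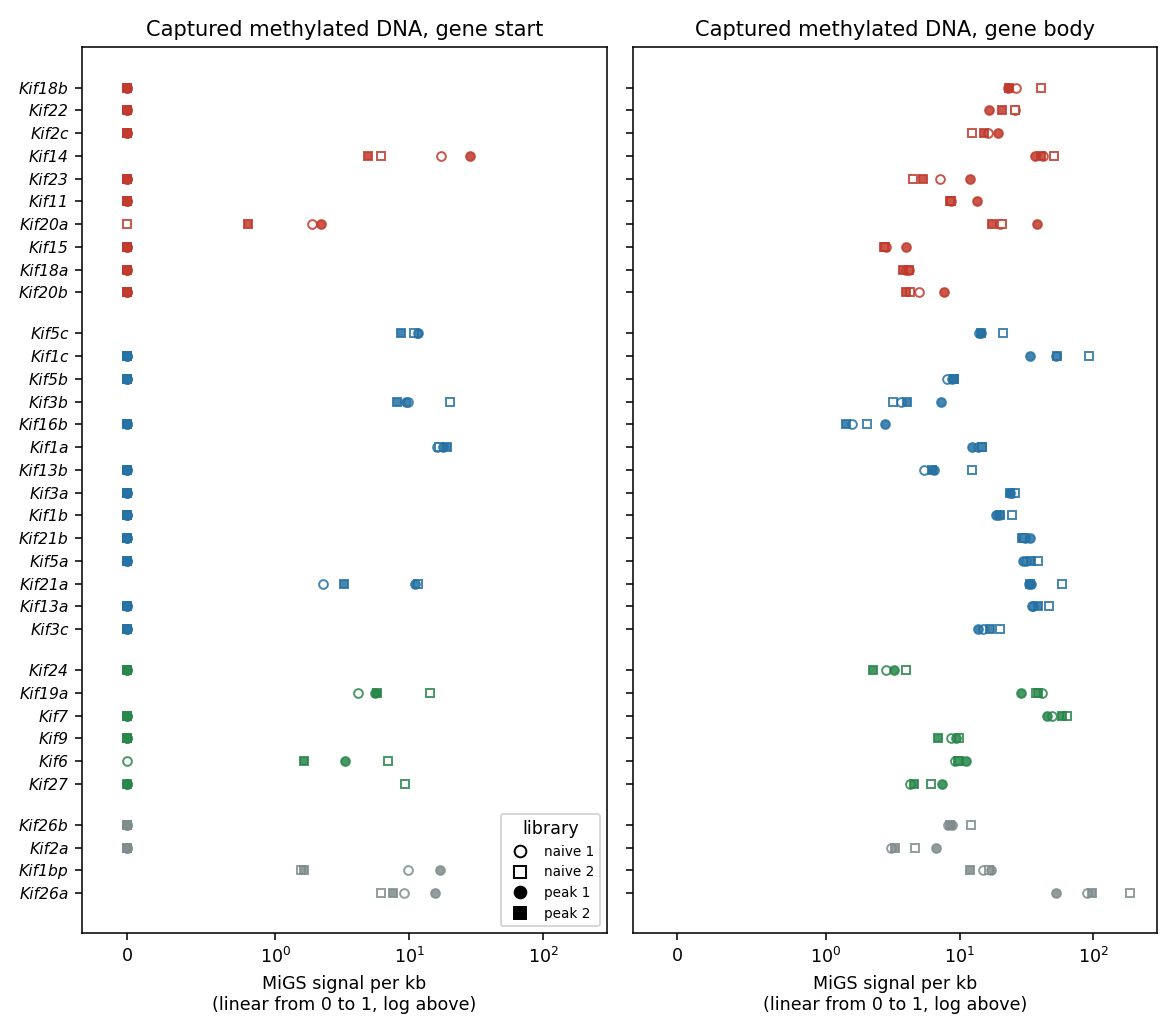
MiGS signal per kb (linear from 0 to 1, log above) at the gene start and in the gene body of 34 kinesins, with open symbols for naive and filled symbols for peak libraries, circles for replicate 1 and squares for replicate 2, in red for mitotic, blue for transport, green for cilium-linked and grey for other kinesins. Most starts sit at 0 in all 4 libraries, and naive and peak symbols mix in the gene bodies.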

How the data were processed

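The authors deposited raw counts per Ensembl gene and FPKM values for 2 RNA-seq libraries, per the file headers. Bowtie2, TopHat, featureCounts and edgeR are named with build mm10 in the submitters' processing notes, without their roles. The libraries were stranded and depleted of ribosomal RNA, per the labels' protocols; the counting's strand setting is unstated. FPKM equalled counts scaled by library total and length, so its ratios are those of library totals. The deposited MiGS signal per 50 bp window came out as whole numbers of reads, once multiplied by each library's size factor, in 100% of values within 0.001. A fragment can be counted in several windows. Chromosomes X and Y were not analysed here.

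Counts were scaled by TMM (edgeR 4.0.16) over all genes; no test was made on these single libraries. MiGS was tested by limma 3.58.1 (moderated, variance trend, two-sided) on log2(value + 1) over all starts or bodies of protein-coding genes with at least 20 reads, with Benjamini-Hochberg adjustment at 0.05. The edgeR quasi-likelihood test and DESeq2 1.42.0 on recovered reads were alternatives. The series text calls the MiGS replicates biological without saying how the pooled mice were divided, so their p-values speak for the spread of these libraries alone. Starts came from the RefSeq promoter table and both gene ends were used where it had no entry; Kif1bp was matched through its RefSeq synonym. Motor positions in proteins, planned at first, were not analysed here. Other tools were R 4.3.3, Python 3.11.15 and scipy 1.17.1. Steps were tested on simulated data.

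Members and lists were chosen with earlier results of these data known. Named are all members, the up to 4 members of a partner list with the largest absolute ratio, and kinesin starts and bodies with the 3 smallest p in each direction. Alternatives were other scalings, prior counts, count minimums, call rules, class memberships, tests, regions and left-out libraries.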

Additional observations from a re-analysis of the deposited data

How the results depend on the processing

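Over the alternatives run, the count of mitotic kinesins at least 2-fold higher was 10 throughout. In 1 of these alternatives Kif2a, which also acts at spindle poles, was counted with the mitotic class. The count stayed at 10 there because Kif2a was below 2-fold, so not every member of that wider class was higher. Median log2 ratios ranged from 4.33 to 4.56 for mitotic, from -0.31 to -0.08 for transport, from 0.19 to 0.71 for cilium-linked kinesins and from -0.62 to -0.17 for other symbols. Relative to TMM the median of all genes shifted by -0.12 with library totals, by -0.20 with upper quartile scaling and by 0.03 with DESeq2 size factors. With upper quartile scaling the transport median was -0.31, and 0 other symbols were higher and 1 lower. At 1.5-fold, 2 transport kinesins were higher and 4 lower, 3 cilium-linked kinesins were higher and 1 other symbol lower. That limit was passed upward by 22.2% and downward by 21% of all genes. Cilium-linked kinesins at least 2-fold lower numbered 1 with a prior count of 5, with the deposited FPKM ratio and with a minimum of 50 counts, and 0 where the whole interval had to pass; other symbols at least 2-fold higher numbered 0 in each of these 4 settings. With a count minimum of 1 the median of other symbols was -0.17. Counting Kif17 with the transport class changed nothing, as it had under 10 counts.

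With a replicate block, edgeR called 2 kinesin bodies, Kif1c and Kif26a, both with lower signal at peak (58 higher and 580 lower bodies in all), and 0 kinesin starts (4 and 71 in all); limma with the block called 0 of each. The labels do not say what the replicate numbers share, and deviations of same-numbered libraries correlated across genes at 0.15 (starts) and 0.12 (bodies). Leaving out each MiGS library in turn gave from 0 to 0 kinesin calls; the lone library was then assumed to vary like the other condition, and with 0 calls over all libraries this says nothing about stability. RNA-seq, with 1 library per condition, allows no left-out library.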

Other observations

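Kinesin symbols under the count minimum gave values outside the comparisons. Kif2b, classed as mitotic, had no counts in either RNA-seq library. At its start it held 152 and 184 reads in naive MiGS libraries and 86 and 133 in peak ones. Its mean signal was 94.3 per kb, against 17.5 per kb at the starts of Kif1a, the highest of the 34 measured kinesins. Kif28, with 1 count in each RNA-seq library, held 94 and 46 naive and 132 and 175 peak reads over both gene ends, a mean of 34.4 per kb. Kif12, at 0 counts like Kif2b, had 13 and 33 naive and 27 and 11 peak reads at its start, and Kif17, with 8 and 1 counts, 9 and 9 naive and 3 and 0 peak reads.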
